A study of Mus musculus with 31 samples.

Results

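The cytochrome P450 genes of the mouse kidney were followed across Nbl1 genotype and cisplatin treatment. Members were the table rows whose symbol is Cyp, digits, a letter and digits, without Cyp24a1, Cyp27b1 and pseudogene symbols ending in -ps, which gave 96 of 55487 genes. Whole-kidney mRNA libraries, 1 from each male mouse of B6 background, were sequenced in bulk. The groups were 8 wild type mice given phosphate-buffered saline (WT PBS), 7 mice of the Nbl1 genotype labelled HET given PBS (HET PBS), 8 WT mice given cisplatin and 8 HET mice given cisplatin. Treatment began at 8 weeks of age and lasted 4 weeks, with collection 3 days later. The labels put collection at 11 weeks, although start and length add up to more. No dose, no kind of Nbl1 allele and no strand setting could be taken from the labels. The animals were on 1 strain background and of 1 sex, and each library mixes all cell types of the kidney, so fewer cells of a type and less RNA per cell cannot be told apart.

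P450 enzymes are heme proteins that insert an oxygen atom from molecular oxygen into small lipophilic molecules, with electrons passed on by P450 reductase and cytochrome b5 at the endoplasmic reticulum or by ferredoxin in mitochondria. In the kidney they are best known in proximal tubule cells, where members of the Cyp4a and Cyp2j subfamilies hydroxylate or epoxidise arachidonic acid and others oxidise drugs, solvents, sterols and steroids. Several mouse members are known to be held high in male kidney by androgens, and Cyp4a10 and Cyp4a14 are textbook targets of the fatty acid receptor PPAR alpha.

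Library totals ranged between 29845567 and 37301170 counts for WT PBS, between 29231845 and 36696042 for HET PBS, between 24650858 and 28862731 for WT cisplatin and between 26869034 and 31915040 for HET cisplatin. Kidney genes (Umod, Nphs1, Slc12a1, Aqp2) summed to between 4381 and 5099 CPM (counts scaled to 1000000 per library) in the PBS libraries and to between 1128 and 3543 CPM in the cisplatin libraries, without overlap. Nbl1 itself lay at 3.71 to 7.90 CPM in WT PBS and 0.106 to 4.20 in HET PBS, and at 10.7 to 26.2 in the WT and 0.861 to 13.9 in the HET mice under cisplatin. The genotypes overlapped under both treatments, and neither difference passed across all genes (edgeR quasi-likelihood, adjusted p = 0.778 and 0.874). Nbl1 was 0.106 CPM in the library labelled HET PBS 1, 0.434 in HET PBS 6, 1.08 in HET cisplatin 3 and 0.861 in HET cisplatin 4, below the rest of each group, and the libraries labelled WT PBS 6 and WT cisplatin 6 reached into the HET range. Results were repeated without 5 libraries (WT PBS 6, HET PBS 1 and 6, HET cisplatin 3 and 4), and without 3 that stand apart in adrenal or tubule genes (HET cisplatin 4, WT cisplatin 6 and HET cisplatin 6). Animals with label numbers in the 600s include all 8 HET cisplatin mice but only 4 WT PBS, 4 HET PBS and 6 WT cisplatin mice, so number range and group are partly confounded.

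Under PBS the family was dominated by 3 genes. Summed over all 96 members, TPM (the deposited level, scaled for transcript length and library size) were 2689 at the lowest, 2985 at the median and 3331 at the highest in WT PBS, and 2833, 2967 and 3382 in HET PBS. Cyp4b1, Cyp2e1 and Cyp2j5 together held 69.2% to 73.0% of that sum in the WT PBS libraries. Under cisplatin the sum was 382, 719 and 1702 TPM in WT and 525.9, 883 and 1964 TPM in HET, so that no cisplatin library reached the lowest PBS library. The group mean of the sum was 3.50 times as high under PBS as under cisplatin in WT and 3.16 times in HET, and no test was run on it. The mean sum fell by 2173 TPM in WT, and Cyp4b1, Cyp2e1 and Cyp2j5 accounted for 1938 TPM of this difference.

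**Figure D1:**
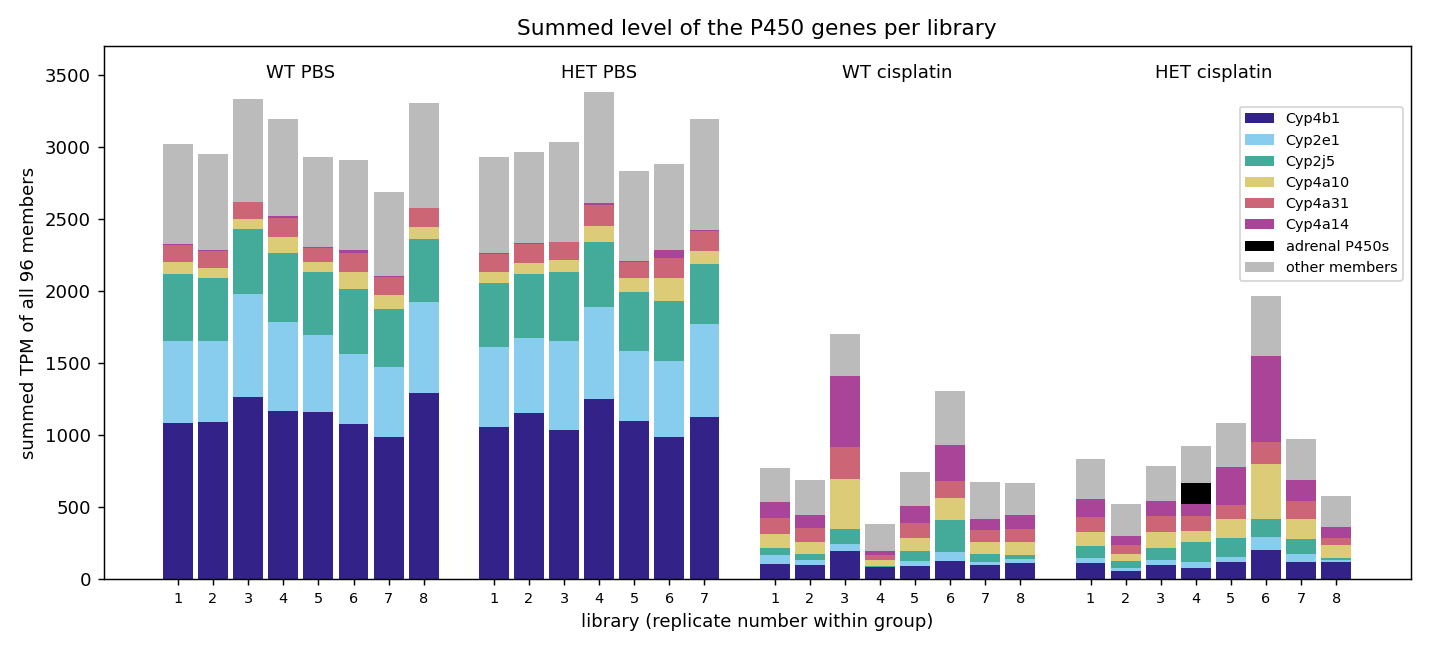
Summed TPM of the 96 P450 genes in each of the 31 libraries, stacked by member; the horizontal axis gives the replicate number within each group. The PBS libraries lie between 2689 and 3382 TPM, the cisplatin libraries between 382 and 1964 TPM, and the adrenal P450s are visible in HET cisplatin 4 alone.

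The order of the members changed with the treatment. In WT PBS the mean TPM was 1141 for Cyp4b1, 576 for Cyp2e1, 445 for Cyp2j5, 140 for Cyp2a4, 121 for Cyp4a31, 97.3 for Cyp2j13, 87.4 for Cyp4a10, 77.4 for Cyp2j11, 67.3 for Cyp7b1 and 62.2 for Cyp2d9. In WT cisplatin the first place went to Cyp4a14 at 157 TPM, followed by Cyp4a10 at 124, Cyp4b1 at 116 and Cyp4a31 at 108. These means do not settle the order under cisplatin, because Cyp4a14 alone ran from 22.5 to 498 TPM among the 8 WT cisplatin libraries. Cyp4a14 had ranked 17 in WT PBS and 16 in HET PBS and ranked 1 in both cisplatin groups, while Cyp2a4 moved from rank 4 to 19 in both genotypes.

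Of the 96 members, 48 passed the filter on low counts and were tested. In WT, cisplatin lowered 22 and raised 14 of them, where 29.6% of all 19268 tested genes were lower, 33.6% were higher and 63.2% were changed in either direction at an adjusted p under 0.05. The members' shares were 45.8% lower and 29.2% higher, so the share that fell was above the background and the share that rose was close to it. Neither difference was tested. For HET mice the numbers were 21 lower (43.8%) and 13 higher (27.1%), beside 28.0%, 31% and 59.0% of all genes in the same order. The median log2 fold change of the tested members was -0.45 in WT and -0.28 in HET, beside 0.06 for all tested genes in each genotype. The WT and HET contrasts gave the same call for 44 of the 48 members: 20 fell in both, 13 rose in both and 11 passed in neither. No joint share was taken over all tested genes. The agreement therefore has no background and is not read as a trait of the family. With scaling by library totals alone, which moves the median of all genes up by 0.39 in WT and 0.41 in HET, 17 members were lower and 18 higher in WT (51.4% of the calls higher, against 38.9% with trimmed mean scaling) and 16 and 17 in HET, beside 14.9% lower and 61.4% higher of all genes in WT and 12.5% and 62.2% in HET. Under both scalings the members' share of falls was above that of all genes. Their share of rises was close to that of all genes with trimmed mean scaling and below it with library totals. The numbers of falls and rises themselves moved with the scaling. The CPM of the cisplatin and PBS groups did not overlap for 25 of 48 members in WT, where 31.8% of all tested genes did not overlap, and for 19 in HET, beside 26%.

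**Figure D2:**
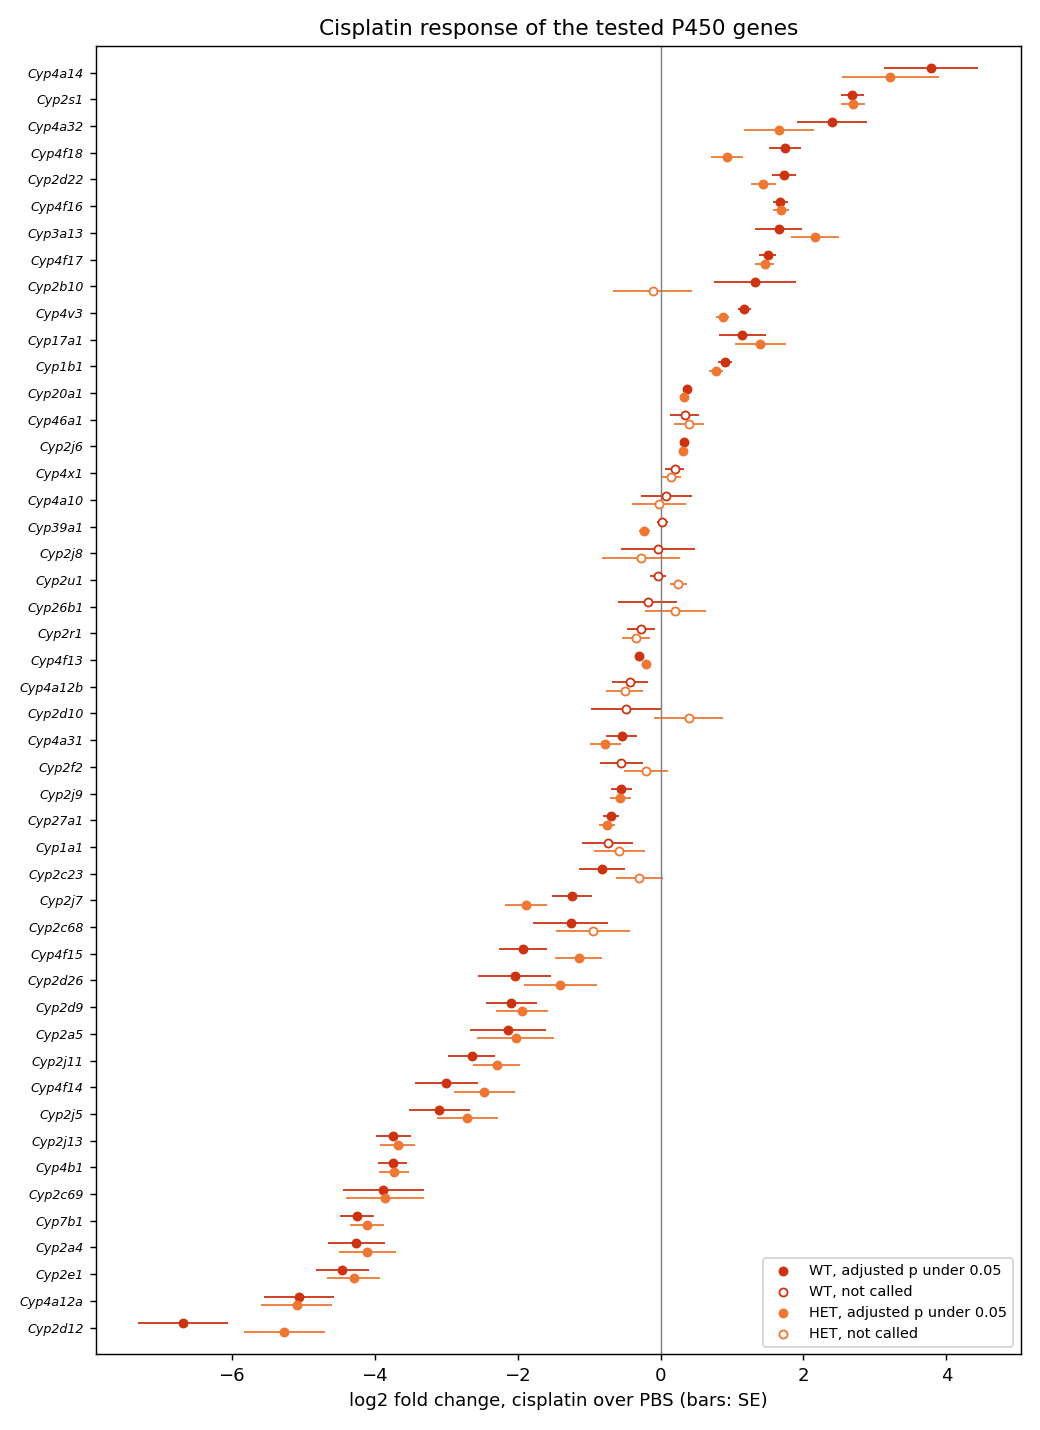
Log2 fold change of cisplatin over PBS with its standard error (SE) for the 48 tested P450 genes, ordered by the WT value; filled points passed an adjusted p of 0.05 in edgeR and open points did not. The values run from -6.68 (Cyp2d12) to 3.79 (Cyp4a14) in WT, and the HET points lie on the same side for every called gene but Cyp2b10 and Cyp39a1.

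Of the Cyp4 family, the fatty acid omega hydroxylases, 15 of 20 members were tested, with 6 lower and 6 higher in each genotype. Of all tested genes, 29.6% were lower and 33.6% higher in WT, and 28.0% and 31% in HET. Neither this class nor those below were tested against these shares. Cyp4b1, which also turns several plant and industrial compounds into toxins, was the most abundant P450 of the untreated kidney. Its level was 2795, 3148 and 3494 CPM (lowest, median, highest) in WT PBS, 2821, 3063 and 3336 in HET PBS, 175, 198 and 425 in WT cisplatin and 106, 224 and 446 in HET cisplatin. Cisplatin and PBS libraries were separated by a wide gap in both genotypes, and the log2 fold change was -3.75 ± 0.20 (SE) in WT and -3.73 ± 0.21 in HET (edgeR, adjusted p = 4.66e-16 and 9.26e-16).

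The Cyp4a genes lie beside Cyp4b1 in a cluster of 10 members on chromosome 4 (115106323 to 115647723, GRCm38), and they did not move together. Cyp4a12a, a male-dominant arachidonic acid hydroxylase of the mouse kidney, stood at 91.5, 136 and 172 CPM in WT PBS and at 0.283, 2.40 and 12.2 in WT cisplatin. In HET it was 108, 139 and 195 CPM under PBS and 1.09, 3.47 and 14.1 under cisplatin. The groups did not overlap, and the log2 fold change was -5.06 ± 0.49 in WT and -5.09 ± 0.50 in HET (edgeR, adjusted p = 2.18e-10 and 2.90e-10). With limma voom the WT value was -5.91, and without the 3 libraries that stand apart the HET value was -5.71.

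Cyp4a12b, its near copy, gave 13.1, 16.9 and 30.2 CPM in WT PBS and 7.83, 12.1 and 28.8 in WT cisplatin, with wide overlap. Its log2 fold change was -0.42 ± 0.26 in WT and -0.50 ± 0.26 in HET and did not pass (edgeR, adjusted p = 0.15 and 0.1). The coding sequences of the pair are 98.5% identical, with 23 differences in 1524 bases and a longest stretch of 342 bases without a difference, and both genes carry fractional counts in all 31 libraries. How reads were split between them is therefore uncertain. The 60 coding bases in which they differ most, ending at base 683 from the start codon (GENCODE M21 transcripts), are shown with the differing bases in capitals.

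Cyp4a12a: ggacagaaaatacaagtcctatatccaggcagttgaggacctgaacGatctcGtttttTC

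Cyp4a12b: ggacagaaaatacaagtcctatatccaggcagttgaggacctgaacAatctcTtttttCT

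Only 4 bases in this window tell the copies apart, while the fitted responses of the genes lay more than 4 log2 units apart in each genotype.

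Cyp4a14 rose more than any other tested member in both genotypes. It was 7.96, 21.6 and 73.5 CPM in WT PBS, 15.6, 35.1 and 204 in HET PBS, 65.2, 271 and 1486 in WT cisplatin and 153, 306 and 1792 in HET cisplatin. The ranges overlapped through 1 high PBS or 1 low cisplatin library, and the log2 fold change was 3.79 ± 0.66 in WT and 3.22 ± 0.68 in HET (edgeR, adjusted p = 9.76e-06 and 1.51e-04). Without HET PBS 6 the HET value was 4.08, without HET cisplatin 6 it was 2.58, and without WT cisplatin 3 the WT value was 3.18, each still past the threshold (edgeR, adjusted p at most 5.69e-04). Without the 5 libraries named above the HET value was 4.37.

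Cyp4a10, which shares the PPAR alpha response with Cyp4a14 in textbook accounts, did not pass: 196, 258 and 390 CPM in WT PBS against 91.1, 209 and 861 in WT cisplatin. Its log2 fold change was 0.08 ± 0.36 in WT and -0.02 ± 0.37 in HET (edgeR, adjusted p = 0.855 and 0.963), an error that leaves room for changes in either direction. Cyp4a31, 96.6% identical to Cyp4a10 in coding sequence, was 251, 295 and 350 CPM in WT PBS and 84.9, 183 and 438 in WT cisplatin. It passed at -0.54 ± 0.22 in WT and -0.77 ± 0.22 in HET (edgeR, adjusted p = 0.0289 and 0.00356), with overlapping groups, and missed with library totals (adjusted p = 0.454 and 0.0862). In WT the call was also lost without WT PBS 6 or without WT cisplatin 2, 4, 7 or 8 (adjusted p = 0.0511 to 0.0640) and among animals of the 600s alone (0.164). Cyp4a32 passed as higher in both genotypes but stayed at or below 1.46 CPM in every library.

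Several Cyp4a genes, though not all, also shared their spread between animals. In each of the 4 groups, 1 library was the highest of its group for Cyp4a10, Cyp4a14, Cyp4a31 and Cyp4a12b at once: WT PBS 6, HET PBS 6, WT cisplatin 3 and HET cisplatin 6. For Cyp4a14 that library stood 3.40, 5.81, 5.49 and 5.86 times above its group's median, and for Cyp4a10 1.51, 1.79, 4.12 and 4.15 times. For Cyp4a31 the lead in WT PBS was small, 350.5 against 341.5 CPM. Cyp4a12a and Cyp4a32 were highest in WT PBS 1 and Cyp4b1 in WT PBS 8, and each of these genes in HET PBS 4. Under cisplatin their highest libraries were the same as those named above. This was not particular to Cyp4 genes, since Cyp2d9 and Cyp2d22 were also highest in WT cisplatin 3 and HET cisplatin 6. The near-identical coding sequences of Cyp4a10, Cyp4a31 and Cyp4a32 mean that reads could pass between these 3, whereas Cyp4a14 is no part of a pair at or above 90% identity.

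The Cyp4f genes split in the order in which they lie on chromosome 17 (32452723 to 32947402). Cyp4f17 and Cyp4f16 rose, by 1.498 ± 0.13 and 1.68 ± 0.11 on the log2 scale in WT and by 1.46 ± 0.13 and 1.69 ± 0.11 in HET (edgeR, adjusted p at most 4.71e-11). Cyp4f16 stood at 4.00, 4.73 and 5.57 CPM in WT PBS and at 10.9, 16.1 and 18.5 in WT cisplatin, without overlap. Cyp4f15, Cyp4f14 and Cyp4f13, at the other end, fell. Cyp4f14, a leukotriene B4 hydroxylase, went from 0.787, 1.45 and 1.97 CPM to 0, 0.168 and 0.316 in WT (log2 fold change -2.996 ± 0.44, edgeR adjusted p = 6.22e-07) and also fell in HET (-2.46 ± 0.43, adjusted p = 1.14e-05). With limma voom the WT value was -3.75. The fall of Cyp4f13, -0.30 in WT and -0.21 in HET, turned into 0.09 and 0.20 with library totals, so that the called fall was lost in WT (adjusted p = 0.0955) and became a called rise in HET (edgeR, adjusted p = 0.00146). Cyp4f16 shares 96.3% of its coding bases with Cyp4f37, which had 16 counts over all libraries.

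Outside these clusters, Cyp4f18, the hydroxylase that inactivates leukotriene B4 in neutrophils, was low. It rose from 0.300, 0.381 and 0.740 CPM in WT PBS to 1.04, 1.60 and 1.99 in WT cisplatin (log2 fold change 1.74 ± 0.23, edgeR adjusted p = 5.99e-08) and by 0.93 ± 0.22 in HET (6.37e-04). The macrophage list (Adgre1, Cd68, Itgam, Csf1r, C1qa) had 4 of 5 members higher and 1 lower in WT, and 3 higher and 1 lower in HET. Of all tested genes, 33.6% were higher and 29.6% lower in WT, and 31% and 28.0% in HET. The list summed to 65.6 to 77.1 CPM in WT PBS and 60.9 to 110 in WT cisplatin. In HET it summed to 66.95 to 79.6 CPM under PBS and 30.0 to 97.2 under cisplatin. Its part in the Cyp4f18 result was not tested. Cyp4v3, a fatty acid hydroxylase, rose by 1.17 ± 0.09 in WT and 0.87 ± 0.09 in HET, from at most 6.56 CPM in WT PBS to at least 11.0 in WT cisplatin.

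**Figure D3:**
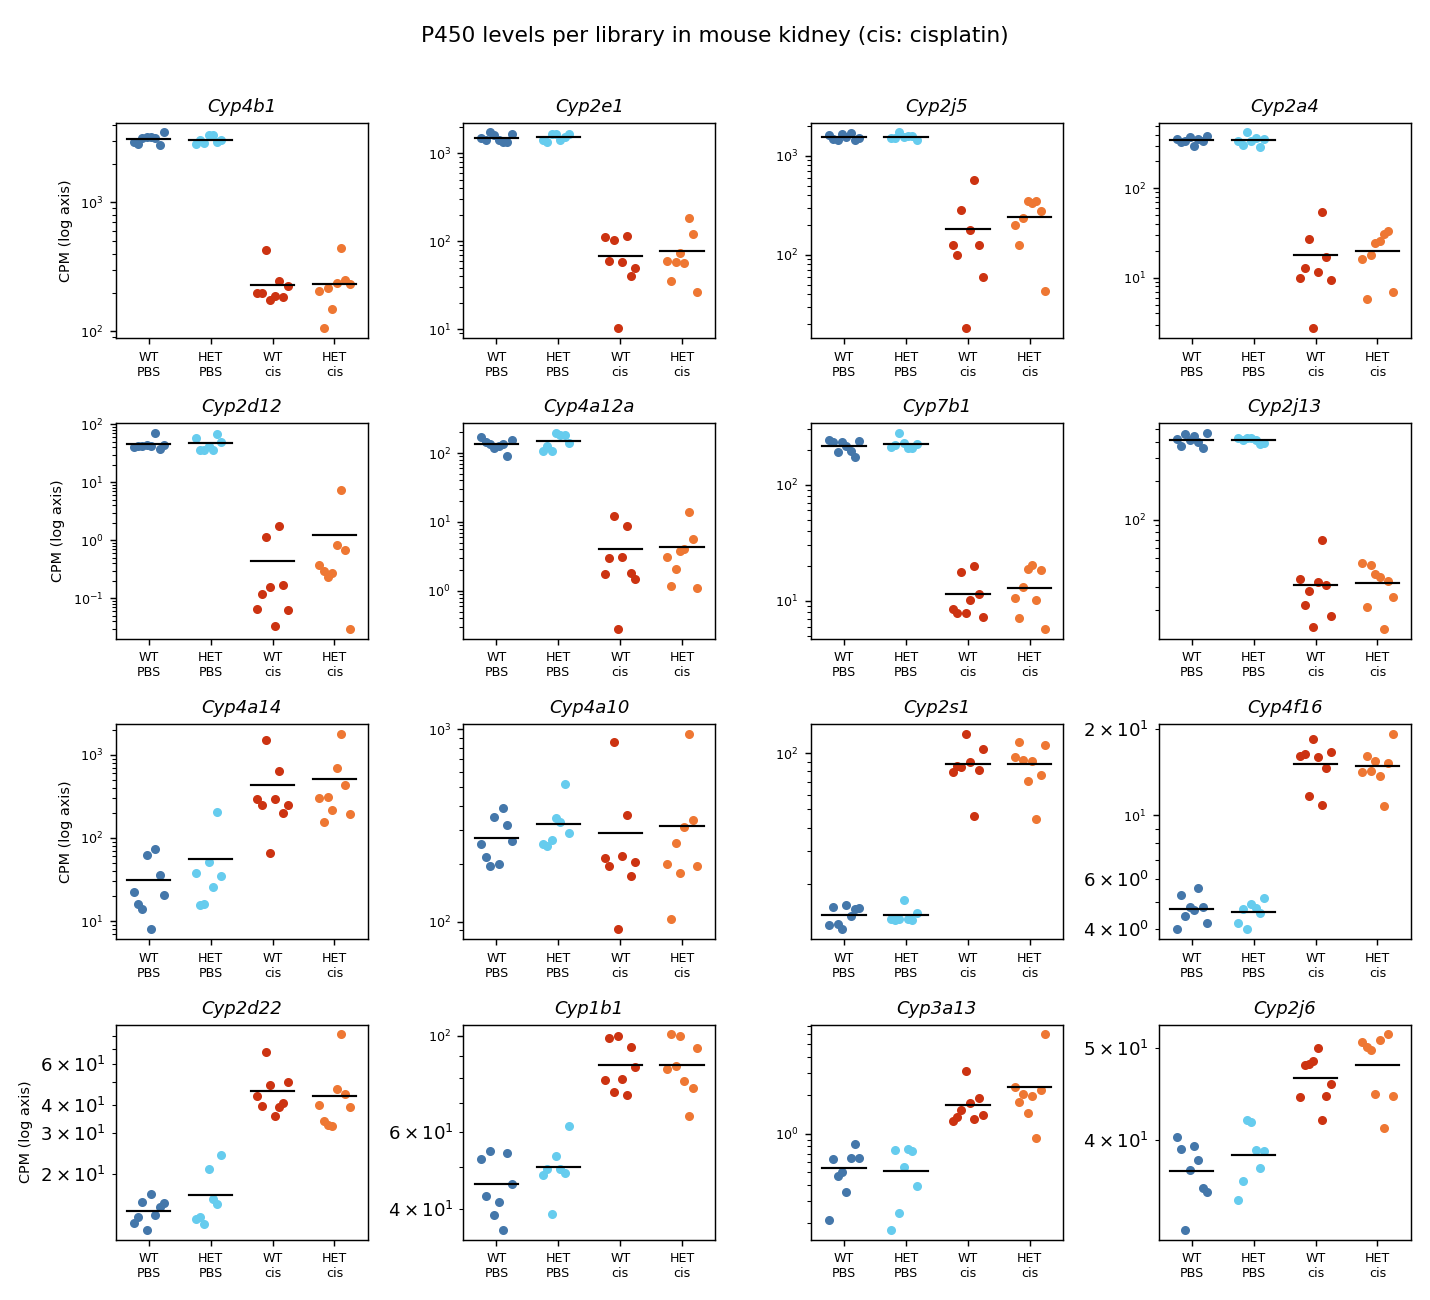
CPM on a log axis for 16 P450 genes in every library, by group, with the group mean as a line; the HET cisplatin library with no Cyp2d12 count is drawn at 0.03 CPM. The first 8 panels show genes whose cisplatin libraries all lie below the PBS libraries, and Cyp4a10 shows overlapping groups.

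The arachidonic acid epoxygenase subfamilies Cyp2c and Cyp2j had 10 of 23 members tested. In WT 8 were lower and 1 was higher, beside 29.6% and 33.6% of all tested genes. In HET 6 were lower and 1 was higher, beside 28.0% and 31%. Cyp2j5, the main renal epoxygenase of this list, was 1451, 1537 and 1703 CPM in WT PBS, 1452, 1554 and 1724 in HET PBS, 18.2, 127 and 567.9 in WT cisplatin and 43.2, 258 and 351 in HET cisplatin. Every cisplatin library lay below every PBS library, and the cisplatin libraries of WT spanned a far wider range than those of PBS. The log2 fold change was -3.09 ± 0.42 in WT and -2.70 ± 0.42 in HET (edgeR, adjusted p = 1.70e-07 and 2.14e-06), and limma voom put the WT value at -3.825.

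Cyp2j13 fell with less spread between animals, from 356, 417 and 469 CPM to 14.7, 29.5 and 69.1 in WT (log2 fold change -3.74 ± 0.24, edgeR adjusted p = 2.44e-14) and by 3.68 on the log2 scale in HET. Cyp2j11 fell from 188, 215 and 249 CPM to 6.10, 27.4 and 87.3 in WT (-2.64 ± 0.33, adjusted p = 2.33e-08) and to 10.7, 48.8 and 70.5 in HET (-2.29 ± 0.33, adjusted p = 4.26e-07). Neither gene had overlapping groups. Of the same cluster on chromosome 4 (96027534 to 96664154), Cyp2j7 and Cyp2j9 fell in both genotypes, Cyp2j9 by 0.55 in WT and 0.56 in HET, which no longer passed with library totals (adjusted p = 0.343 and 0.361). Cyp2j8 did not pass at -0.04 ± 0.52, and Cyp2j12 had 1 count in all libraries.

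Cyp2j6, between Cyp2j8 and Cyp2j9, was the only tested member of the cluster that rose: 32.2, 37.7 and 40.3 CPM in WT PBS against 42.0, 47.0 and 50.1 in WT cisplatin. The groups did not overlap in WT, and the log2 fold change was 0.32 ± 0.05 in WT and 0.31 ± 0.06 in HET (edgeR, adjusted p = 4.57e-06 and 1.39e-05), higher in direction under every alternative tried. In the Cyp2c subfamily, Cyp2c23, an epoxygenase of the rodent kidney, was 13.9, 15.5 and 18.7 CPM in WT PBS and 1.51, 7.70 and 24.96 in WT cisplatin, so that the cisplatin libraries lay on both sides of the PBS range. It passed in WT (-0.82 ± 0.32, edgeR adjusted p = 0.0283) and not in HET (-0.30 ± 0.33, adjusted p = 0.457), and the difference between these responses did not pass (interaction 0.52, adjusted p = 0.941). With library totals the WT call was lost (-0.43, adjusted p = 0.205).

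The upstream sequence of 6 falling or rising members is shown because neighbours in 1 cluster went opposite ways. RefSeq start sites were matched for 74 of the 96 members and 33 of the 48 tested ones (GRCm38.p6). Of the 4 members with the largest called changes, the table holds Cyp2e1 and Cyp2a4, and Cyp4b1, Cyp2j5, Cyp2j13 and Cyp2j6 were added after their values were seen. Each line gives the 250 bases before the RefSeq start site, 5′ to 3′ on the gene's own strand. RefSeq starts differ from the GENCODE gene bounds, and all windows shown but that of Cyp2j13 reach inside those bounds. The Cyp2e1 window, for example, ends at 140763818, past the GENCODE start at 140763739. Capitals mark matches, on either strand, to TNGCGTG (aryl hydrocarbon receptor core), TGACNNNGC (NRF2 element core) and AGGNCANAG (the direct repeat bound by HNF4 and PPAR), which do not overlap in the windows shown.

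Cyp4b1, chr4:115647722-115647971, minus strand: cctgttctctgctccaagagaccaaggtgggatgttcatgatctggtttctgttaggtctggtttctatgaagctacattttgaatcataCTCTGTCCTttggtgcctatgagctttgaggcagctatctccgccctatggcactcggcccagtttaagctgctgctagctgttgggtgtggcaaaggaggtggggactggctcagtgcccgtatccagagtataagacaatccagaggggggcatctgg

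Cyp2j5, chr4:96664120-96664369, minus strand: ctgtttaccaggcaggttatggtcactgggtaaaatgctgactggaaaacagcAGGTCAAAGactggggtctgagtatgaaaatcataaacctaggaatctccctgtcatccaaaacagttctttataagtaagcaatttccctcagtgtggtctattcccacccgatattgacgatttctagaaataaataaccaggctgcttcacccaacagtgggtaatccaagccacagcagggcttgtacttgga

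Cyp2j13, chr4:96077548-96077797, minus strand: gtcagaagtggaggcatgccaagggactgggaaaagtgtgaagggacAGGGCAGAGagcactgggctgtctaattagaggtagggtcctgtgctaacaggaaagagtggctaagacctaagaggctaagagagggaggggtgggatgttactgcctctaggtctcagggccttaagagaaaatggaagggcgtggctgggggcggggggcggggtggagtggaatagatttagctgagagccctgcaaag

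Cyp2j6, chr4:96553652-96553901, minus strand: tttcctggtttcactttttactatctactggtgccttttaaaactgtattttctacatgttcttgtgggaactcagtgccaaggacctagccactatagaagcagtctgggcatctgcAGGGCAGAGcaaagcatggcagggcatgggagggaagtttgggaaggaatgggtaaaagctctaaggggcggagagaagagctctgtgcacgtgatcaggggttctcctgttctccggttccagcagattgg

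Cyp2e1, chr7:140763569-140763818, plus strand: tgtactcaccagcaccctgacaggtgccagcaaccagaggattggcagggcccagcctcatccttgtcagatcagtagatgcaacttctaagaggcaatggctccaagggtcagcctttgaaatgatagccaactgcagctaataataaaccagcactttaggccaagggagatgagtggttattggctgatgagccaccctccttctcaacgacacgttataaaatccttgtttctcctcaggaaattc

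Cyp2a4, chr7:26306942-26307191, plus strand: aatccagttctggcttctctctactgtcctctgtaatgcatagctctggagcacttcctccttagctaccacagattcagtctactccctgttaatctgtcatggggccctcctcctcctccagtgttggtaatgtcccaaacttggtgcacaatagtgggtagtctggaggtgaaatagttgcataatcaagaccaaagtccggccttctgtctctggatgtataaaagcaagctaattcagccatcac

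AGGNCANAG was found in Cyp2j5, Cyp2j13 and Cyp4b1, which fell, and equally in Cyp2j6, which rose, and it was not found in Cyp2e1 or Cyp2a4. It was present in 5 of 16 members that fell in WT, 2 of 10 that rose and 3 of 7 that did not pass, beside 7.68% of all 32851 windows in the table. The members with a match were Cyp2d9, Cyp2d10, Cyp2f2, Cyp2j5, Cyp2j6, Cyp2j8, Cyp2j11, Cyp2j13, Cyp4b1 and Cyp4f16. TNGCGTG, in 4.10% of all windows, was found upstream of Cyp2c68 alone, and TGACNNNGC (10.2%) upstream of Cyp4f14 and Cyp4f18. A match is a description of letters in the window, not a bound site.

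The remaining Cyp2 subfamilies, enzymes of drug, solvent and steroid oxidation, had 11 of 23 members tested. In WT 6 were lower and 3 higher, beside 29.6% and 33.6% of all tested genes. In HET 6 were lower and 2 higher, beside 28.0% and 31%. Cyp2e1, which oxidises ethanol, acetone and small solvents, lies on chromosome 7 (140763739 to 140774987). It was 1321, 1442 and 1719 CPM in WT PBS and 10.4, 59.1 and 114 in WT cisplatin, and 1334, 1506 and 1665 against 26.3, 59.1 and 186 in HET. The groups were far apart, with a log2 fold change of -4.45 ± 0.37 in WT and -4.30 ± 0.37 in HET (edgeR, adjusted p = 7.86e-12 and 2.62e-11).

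Cyp2d12 fell the most of all tested members. It was 37.8, 42.3 and 70.6 CPM in WT PBS and 0.0341, 0.138 and 1.77 in WT cisplatin, and 35.6, 41.7 and 68.9 against 0, 0.335 and 7.24 in HET. The fitted log2 fold change was -6.68 ± 0.63 in WT and -5.27 ± 0.56 in HET (edgeR, adjusted p = 1.20e-10 and 2.06e-09). Single libraries moved it: it was -7.52 without WT cisplatin 6 and -6.94 without HET cisplatin 6. Limma voom gave -8.35 and -6.97. Its neighbour Cyp2d9, a male-specific testosterone hydroxylase, fell by 2.09 and 1.94, Cyp2d26 fell by 2.04 and 1.40, and Cyp2d10 did not pass (-0.48 ± 0.49 and 0.39 ± 0.48). The Cyp2d9 groups overlapped in HET, and the Cyp2d26 groups overlapped in both genotypes. The HET call of Cyp2d26 was lost with library totals (-1.04, edgeR adjusted p = 0.0573).

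Cyp2d22, at the other end of that cluster on chromosome 15 (82370527 to 82794294), rose. Its CPM was 11.4, 13.8 and 16.3 in WT PBS, 12.04, 14.8 and 24.1 in HET PBS, 35.6, 42.2 and 67.7 in WT cisplatin and 32.3, 39.5 and 81.0 in HET cisplatin. The groups did not overlap in either genotype (log2 fold change 1.73 ± 0.17 and 1.44 ± 0.18, edgeR adjusted p = 2.61e-10 and 2.68e-08). Cyp2d9, Cyp2d10, Cyp2d11, Cyp2d12 and Cyp2d34 share 90.6% to 94.7% of coding bases in the pairs at or above 90%, and Cyp2d22 is in none of these pairs.

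The cluster on chromosome 7 (25802475 to 27158668) also held both directions. Cyp2s1, a P450 of epithelia outside the liver, rose from 11.4, 14.1 and 15.5 CPM in WT PBS to 46, 85.1 and 127 in WT cisplatin, and from 12.8, 12.96 and 16.3 to 44.5, 91.7 and 115 in HET. Its response was 2.68 ± 0.16 in WT and 2.69 ± 0.17 in HET (edgeR, adjusted p = 3.75e-15 and 1.59e-14), with no overlap. Cyp2a4, a testosterone hydroxylase, fell from 297, 347 and 388 CPM to 2.74, 12.3 and 55.1 in WT (-4.26 ± 0.40, adjusted p = 1.06e-10) and by 4.10 in HET, with a WT value of -4.85 in limma voom.

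Cyp2a5, the coumarin hydroxylase and near copy of Cyp2a4, fell less, from 71.5, 95.98 and 132 CPM to 3.24, 13.5 and 83.2 in WT, with overlapping groups. Its log2 fold change was -2.14 ± 0.53 in WT and -2.03 ± 0.54 in HET (edgeR, adjusted p = 8.27e-04 and 0.00179), and without WT cisplatin 6 and without HET cisplatin 6 it was -2.84 and -2.80, close to the -2.75 and -2.61 of limma voom with all libraries. The pair differs at 23 of 1482 coding bases (98.4% identity), and both carry fractional counts in all 31 libraries, so the split of reads between them is uncertain. The window in which they differ most, coding bases 596 to 655, shows how sparse the distinguishing bases are (differences in capitals).

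Cyp2a4 coding: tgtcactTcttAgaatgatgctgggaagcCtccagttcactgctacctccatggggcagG

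Cyp2a5 coding: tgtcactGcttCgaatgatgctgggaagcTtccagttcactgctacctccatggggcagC

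Cyp2b10, the phenobarbital-responsive P450, was low and scattered. It was 0.233, 0.618 and 2.08 CPM in WT PBS, 0.608, 1.202 and 8.50 in HET PBS, 1.01, 1.74 and 4.34 in WT cisplatin and 0.101, 2.20 and 4.70 in HET cisplatin. It passed narrowly in WT (1.32 ± 0.58, edgeR adjusted p = 0.0451) and not in HET (-0.11 ± 0.56, adjusted p = 0.878), with overlapping groups. The WT call was lost without any 1 of 10 WT libraries (adjusted p = 0.0503 to 0.107) and among animals of the 600s alone (0.349), and the interaction did not pass (adjusted p = 0.933).

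**Figure D4:**
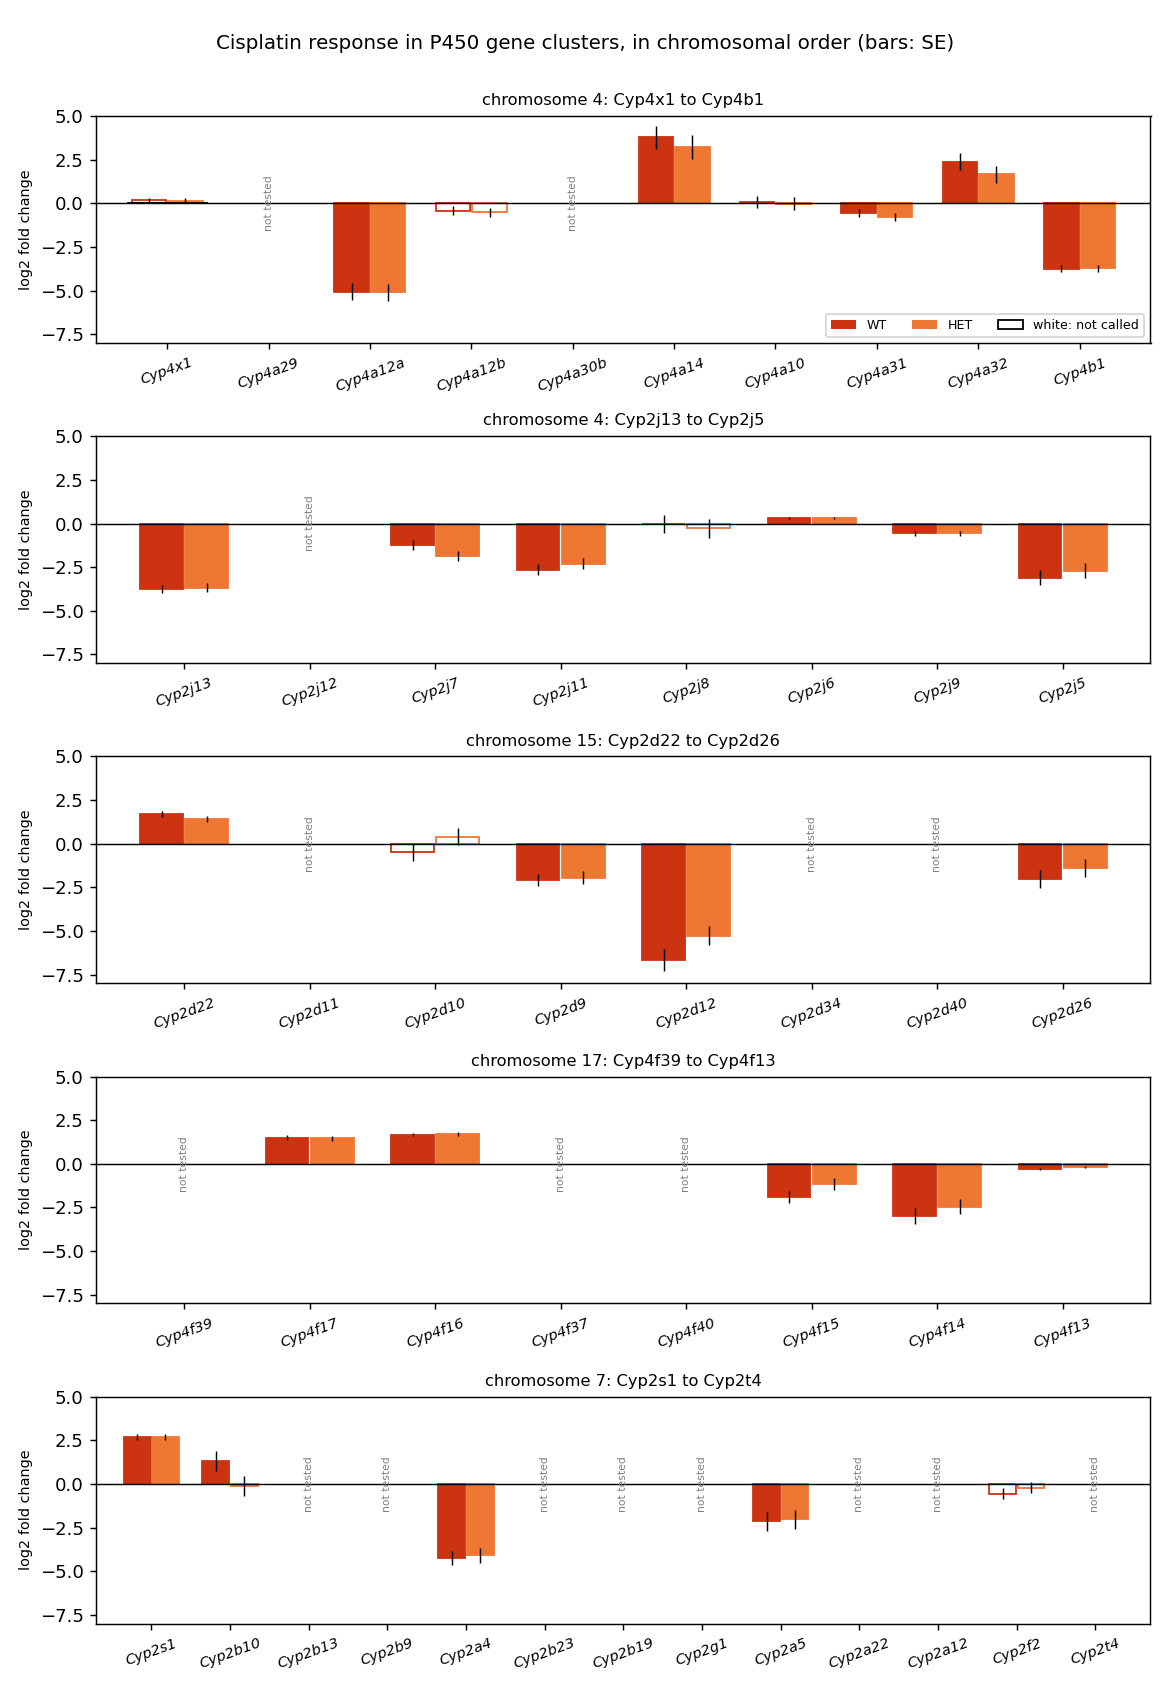
Log2 fold change of cisplatin over PBS (bars, with SE) in WT and HET for the members of 5 gene clusters, placed in chromosomal order and not by distance; white bars did not pass an adjusted p of 0.05 and untested members are named. Rising and falling genes stand in each of the 5 clusters, such as Cyp4a14 at 3.79 and Cyp4a12a at -5.06.

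Among the Cyp1 and Cyp3a genes, the classical drug-oxidising families, 3 of 12 were tested. Calls of a rise fell to 2 of these 3 under either genotype, beside a background of 33.6% (WT) and 31% (HET). With only 3 tested genes, this count is not read as a trait of the class. Cyp1b1, which oxidises oestradiol and polycyclic hydrocarbons outside the liver, rose from 35.8, 44.4 and 54.3 CPM to 73.1, 82.0 and 99.96 in WT and from 39.1, 49.4 and 62.1 to 65.4, 84.6 and 101 in HET. The groups did not overlap, and the response was 0.91 ± 0.10 in WT and 0.78 ± 0.10 in HET (edgeR, adjusted p = 2.27e-09 and 1.16e-07). Cyp3a13, the Cyp3a gene outside the chromosome 5 cluster, was 0.211, 0.568 and 0.829 CPM in WT PBS and 1.25, 1.47 and 3.08 in WT cisplatin (1.65 ± 0.32, edgeR adjusted p = 4.95e-05) and rose by 2.16 ± 0.34 in HET. Cyp1a1, the usual reporter of aryl hydrocarbon receptor activity, stayed at or below 1.10 CPM and did not pass (-0.74 ± 0.36 and -0.58 ± 0.36, adjusted p = 0.0730 and 0.165). The Cyp1a1 call depended on single libraries: it passed as lower in WT without WT PBS 5 or WT cisplatin 5 (edgeR, adjusted p = 0.0387 and 0.0347) and in HET without HET cisplatin 6 (0.0379).

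Of the 5 oxysterol and bile acid enzymes 3 were tested. Cyp7b1, the oxysterol hydroxylase, was 172, 223 and 244 CPM in WT PBS, 206, 221 and 278 in HET PBS, 7.24, 9.41 and 19.9 in WT cisplatin and 5.75, 11.8 and 20.3 in HET cisplatin. It fell with no overlap, with a log2 fold change of -4.24 ± 0.24 in WT and -4.11 ± 0.24 in HET (edgeR, adjusted p = 8.96e-16 and 2.63e-15). Cyp39a1, another oxysterol hydroxylase, stood at 7.83, 8.62 and 10.7 CPM in WT PBS and at 7.40, 9.04 and 10.7 in WT cisplatin. Its WT response did not pass (0.03 ± 0.08, edgeR adjusted p = 0.782), but with library totals it passed as higher (0.425, adjusted p = 3.94e-05). In HET it passed as slightly lower (-0.23 ± 0.08, adjusted p = 0.0156) and turned to 0.18 with library totals, and it missed the threshold among animals of the 600s alone (-0.12, adjusted p = 0.244). Cyp46a1, the cholesterol hydroxylase best known from brain, did not pass at 0.34 ± 0.20 in WT or 0.40 in HET (edgeR, adjusted p = 0.142 and 0.11), and with library totals it passed as higher in both (0.74 and 0.81, adjusted p = 0.00263 and 0.00209).

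Cyp27a1, the mitochondrial sterol hydroxylase, fell from 35.2, 36.8 and 42.3 CPM to 19.5, 22.8 and 27.7 in WT without overlap (-0.69 ± 0.11, edgeR adjusted p = 2.75e-06) and by 0.75 in HET, where the groups overlapped. On the log2(TPM + 1) scale its WT change was -0.13 and did not pass (limma, adjusted p = 0.202). Cyp2r1, the vitamin D hydroxylase of the liver, was near 1.5 CPM and did not pass (-0.27 ± 0.19 and -0.34 ± 0.20, adjusted p = 0.214 and 0.141), although it passed as lower in HET without HET cisplatin 4 (-0.50, adjusted p = 0.0185).

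Cyp26b1, which breaks down retinoic acid, was the only tested gene of its 3-member class and varied widely within groups, from 1.64 to 28.8 CPM in WT PBS and from 4.54 to 15.3 in WT cisplatin. It did not pass (-0.18 ± 0.42 and 0.21 ± 0.43, edgeR adjusted p = 0.728 and 0.702). Cyp20a1, an orphan P450, rose from 18.9, 21.2 and 23.0 CPM to 24.97, 27.5 and 29.1 in WT without overlap (0.37 ± 0.05, edgeR adjusted p = 4.87e-07) and by 0.33 in HET, where the groups overlapped. Cyp2u1, a hydroxylase of long chain fatty acids, did not pass in either genotype (-0.04 ± 0.12 and 0.25 ± 0.12, adjusted p = 0.796 and 0.0751). With library totals Cyp2u1 passed as higher at 0.35 in WT and 0.65 in HET, so its direction in WT rests on the scaling, and it also passed in HET without HET cisplatin 5 (0.28, adjusted p = 0.048).

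The P450s of steroid hormone synthesis other than Cyp17a1 had few counts in every library but 1. Cyp11a1, Cyp11b1 and Cyp21a1, which make corticosteroids in the adrenal cortex, held 2227, 5287 and 5968 counts in the library labelled HET cisplatin 4, or 69.8, 166 and 187 counts in 1000000 of its total (exact 95% intervals 66.9 to 72.7, 161 to 170 and 182 to 192, counting error only). In the other 30 libraries their medians were 1, 0 and 0 counts and their highest values 6, 13 and 10, the last 2 both in WT PBS 2. Cyp11a1 had a count in 18 of these 30 libraries, 45 in all. HET cisplatin 4 thus held 98%, 99.7% and 99.6% of all counts of these 3 genes, and they failed the filter and were not tested. Cyp11b2, the aldosterone synthase, had 20 counts there and 2 in all others together, and Cyp19a1, aromatase, had none in any library.

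Of the adrenal cortex list of 9 genes, 7 were highest in that library too, while Fdx1 (41.3 CPM, up to 63.4 elsewhere) and Inha (0.833, up to 1.698) lay within the range of the others. The sum over the list was 489 CPM in HET cisplatin 4 and 80.5 CPM at most elsewhere. Star had 7374 counts against 25 to 73 elsewhere, Hsd3b1 4107 against 0 to 8 and Nr5a1 318 against 0 to 3. Of genes of the adrenal medulla, Th had 269 counts there against at most 3, Dbh 195 against at most 6, and Pnmt 147 against 0 in all 30 others. Cyp11a1, Cyp11b1, Cyp11b2 and Cyp21a1 added 146 TPM to that library's P450 sum of 928 TPM. The source of these counts was not tested.

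Cyp17a1, which the adult mouse adrenal hardly makes, did not follow: it had 12 counts in HET cisplatin 4, and 1 to 27 in the others. It was 0.0352, 0.227 and 0.565 CPM in WT PBS, 0.0694, 0.174 and 0.349 in HET PBS, 0.375, 0.521 and 0.849 in WT cisplatin and 0.333, 0.476 and 0.715 in HET cisplatin. These low levels rose by 1.15 ± 0.33 and 1.40 ± 0.36 on the log2 scale (edgeR, adjusted p = 0.00314 and 0.00116), with overlapping groups, and the WT call was lost among animals of the 600s alone (0.88, adjusted p = 0.114).

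Liver-type P450s appeared in traces, mainly in 2 libraries. Cyp3a11 had 73 counts in HET cisplatin 1 and 54 in WT PBS 2, at most 17 in any of the other 29, and Cyp3a25 had 25 and 5 counts against at most 4. The next highest Cyp3a11 counts were 17 in WT cisplatin 4 and 10 in HET cisplatin 2. Albumin (Alb) was highest in the same libraries, 348 and 525 counts against 9 to 317, and Ahsg had 25 and 45 against at most 9, while Apoa2 (41 and 72 against 8 to 74), Ttr and Serpina1a were not highest there. The part of adhering tissue in these counts was not tested. The 8 members of the Cyp3a cluster on chromosome 5 all failed the filter.

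**Figure D5:**
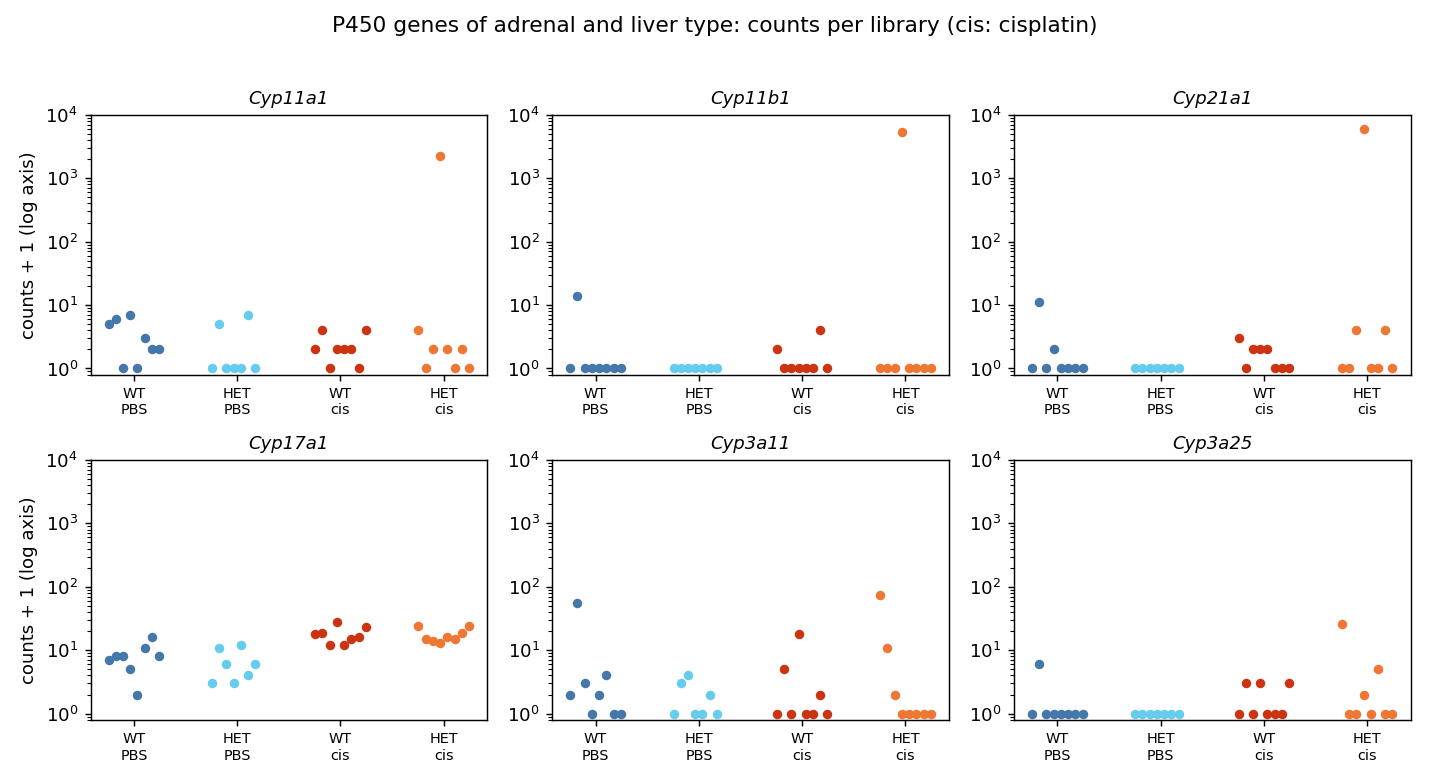
Counts plus 1, on a log axis, of 4 steroid-synthesis and 2 liver-type P450 genes in every library, by group. HET cisplatin 4 alone rises to 2227 counts or more for Cyp11a1, Cyp11b1 and Cyp21a1, whereas Cyp17a1 is spread over all libraries with at most 27 counts.

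The 48 untested members were low throughout. No count in any library was found for 6 of them (Cyp2c39, Cyp2t4, Cyp2w1, Cyp3a16, Cyp3a41b and Cyp19a1), which allows at most 0.00314 CPM over all libraries together. A further 35 had 1 to 100 counts over the 31 libraries, and 7 had more than 100: the adrenal trio, Cyp26a1, Cyp3a11, Cyp4f39 and Cyp2c38. Outside HET cisplatin 4 no untested member reached 1 TPM in any library, the highest being 0.880 TPM.

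Markers of the proximal tubule fell along with the abundant P450s. All 12 genes of that list passed as lower in both genotypes, and its summed level lay between 19960 and 22970 CPM for WT PBS, between 20090 and 22760 for HET PBS, between 1717 and 8380 for WT cisplatin and between 1660 and 8142 for HET cisplatin. Of 8 genes known to be kept high by androgens in male kidney, 7 fell and Aoc1 rose, with sums of 18440 to 20470 CPM in WT PBS and 449 to 976 in WT cisplatin. All 6 tubular injury genes rose, from 383 to 539 CPM in sum in WT PBS to 4919 to 6237 in WT cisplatin. All 4 endothelial genes passed as lower in both genotypes, with a median sum of 288 CPM in WT PBS and 174 in WT cisplatin. Of 4 tested fat genes 3 passed as higher in WT and 4 in HET, with a median sum of 6.46 CPM in WT PBS, 27.7 in WT cisplatin, 11.4 in HET PBS and 36.7 in HET cisplatin. Across all tested genes 29.6% were lower and 33.6% higher in WT, and 28.0% and 31% in HET. The part of these marker genes or their cells in the P450 changes was not tested.

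Among the 16 cisplatin libraries, the level of several P450s moved with Lrp2, the megalin receptor of the proximal tubule. For Cyp2j5, Pearson's r of log2 CPM was 0.945 and Spearman's rho 0.971 (permutation p = 1e-05 each, the smallest that 100000 permutations give, adjusted p = 3.33e-05 over 10 members), with r = 0.964 within WT and 0.978 within HET. Cyp2j11 and Cyp2a4 gave r = 0.944 and 0.913 with the same adjusted p, and r was 0.942, 0.934 and 0.909 for these 3 genes without HET cisplatin 8 and WT cisplatin 4, the libraries farthest from the Lrp2 median.

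For the most abundant gene the relation did not pass: Cyp4b1 gave r = 0.417 and rho = 0.509 (permutation, adjusted p = 0.106 and 0.0508). Cyp2j13 gave r = 0.452 (permutation, adjusted p = 0.0882), with r = 0.891 within WT and -0.02 within HET. HET cisplatin 6 stood out here, with the highest Lrp2 of its group (2680 CPM) and the lowest Cyp2j13 (14.2 CPM), the lowest Kap (169 CPM) and the lowest Havcr1 (31.6 CPM). The other 5 of the 10 most abundant members gave r between 0.669 and 0.841 with adjusted p of at most 0.00577 (permutation), of which Cyp4a31 dropped from 0.731 to 0.5 without the same 2 libraries, and the relation was chosen after the values were seen.

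Over all 31 libraries, the 5 tested genes most like each of the 3 leading members by Spearman correlation of log2 CPM were as follows, as a description that mostly mirrors the gap between treatments. Cyp4b1 was most like Furin, Phyh, Gjb1, Brap and Vamp8 (rho 0.925 to 0.935). Cyp2e1 was most like Lrrc58, Dnajc13, Pank1, Dpyd and Atrnl1 (0.954 to 0.962). Cyp2j5 was most like Dmgdh, Dld, Abhd3, Cox6b1 and Aldh7a1 (0.978 to 0.990).

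Genes that serve P450 enzymes changed as well, as did 63.2% of all tested genes in WT (29.6% lower, 33.6% higher) and 59.0% in HET. Of the 9 tested electron donors 6 fell and 1 rose in WT: Cyb5a, cytochrome b5, fell by 1.54, Fdx1, the mitochondrial ferredoxin, by 1.11, Cyb5b by 0.75 and Por, the reductase that supplies all microsomal P450s, by 0.56 on the log2 scale, with SE of at most 0.10 (edgeR, adjusted p at most 1.32e-09). Of 12 heme genes 8 fell and 2 rose, with Uros at -1.81, Cpox at -1.18 and Fech at -0.52 on the side of synthesis and Blvrb, a biliverdin reductase, at 1.22. In HET 5 electron donors and 8 heme genes fell, beside 28.0% of all tested genes.

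Among transcription factors known to act on P450 genes, Nfe2l2 (NRF2) was higher by 1.25 ± 0.10 in WT, and Nr1h3 and Rxra were lower at -1.14 and -0.64 (edgeR, adjusted p at most 1.08e-08). Of 11 tested eicosanoid partners 6 rose and 2 fell in WT, where 33.6% of all tested genes rose and 29.6% fell. Ephx1, the microsomal epoxide hydrolase, rose from 36.5 to 42.8 CPM in WT PBS to 426 to 546 in WT cisplatin (3.62 ± 0.06, adjusted p = 7.53e-29), whereas Ephx2, the soluble hydrolase of arachidonic acid epoxides, fell by 2.36 ± 0.18. Alox5 and Ltc4s, which make leukotrienes, rose by 6.14 ± 0.39 and 2.94 ± 0.12.

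The flavin monooxygenases, the other microsomal oxidases of drugs, had 4 of 5 genes lower in WT and 3 in HET. Of all tested genes, 29.6% and 28.0% were lower. In WT the log2 changes were -3.01 for Fmo5, -2.04 for Fmo1, -1.52 for Fmo2 and -0.33 for Fmo4. Of the P450 genes whose symbols fall outside the pattern, Cyp51, the sterol demethylase of cholesterol synthesis, fell by 2.85 ± 0.25 in WT and 2.74 ± 0.25 in HET, Tbxas1, thromboxane synthase, fell by 1.80 and 1.43, and Ptgis did not pass (0.20 ± 0.11, edgeR adjusted p = 0.117).

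No P450 gene passed the test between genotypes. Nbl1 itself, at -1.23 under PBS and -1.49 under cisplatin on the log2 scale, did not pass in the same fits, so a missed threshold does not show equal levels. Under PBS, 0 of 48 members passed (0.0% of all tested genes did), with the smallest adjusted p at 0.778, and under cisplatin 0 passed (0.00519% of all tested genes did), with the smallest at 0.874. At an unadjusted p under 0.05, edgeR gave 2 members under PBS (Cyp4f18 and Cyp2b10) and 2 under cisplatin (Cyp39a1 and Cyp4v3), DESeq2 2 and 3, and limma voom 2 and 10, with 0 adjusted calls from each tool. The interaction, HET response minus WT response, also gave 0 adjusted calls and 0.0% among all genes, with 3 members at an unadjusted p under 0.05 in edgeR, 3 in DESeq2 and 6 in limma voom. No share of all genes was taken at this unadjusted level, so these counts have no background and are not read as a result. The smallest adjusted interaction p belonged to Cyp4f18 (-0.81 ± 0.32, edgeR adjusted p = 0.788), which stood at 0.381 CPM in WT PBS and 0.710 in HET PBS at the median. The median absolute genotype difference of the tested members was 0.06 under PBS and 0.18 under cisplatin on the log2 scale.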

How the data were processed

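Polyadenylated RNA of 31 mouse kidneys was sequenced, with RNA integrity numbers above 8 and libraries made with the KAPA mRNA HyperPrep kit, per the labels' protocols. The authors deposited 1 table with expected counts per gene, of which 12.5% are not whole, and counted reads that fit several genes in a way the labels do not describe. The authors also deposited TPM, used here for levels per length and summed levels, and FPKM, which is a constant multiple of TPM within 0.164% (at TPM above 5) and was not used. STAR, featureCounts, fastp and GRCm38 are named in the submitters' processing notes, without versions or roles.

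Counts were rounded, filtered with filterByExpr and scaled by trimmed means (TMM), and 19268 genes were fitted with 4 group means in edgeR 4.0.16 (R 4.3.3), by quasi-likelihood F tests of 5 contrasts. Adjusted p are Benjamini-Hochberg values across the 19268 genes of a contrast, called under 0.05. CPM are on TMM-scaled totals. SE are approximate: each is the absolute log2 fold change divided by the square root of the F statistic of the same test. The p-values measure the spread between animals. On simulated data the fit recovered 56%, 76%, 94% and 100% of genes changed by 0.5, 1, 2 and 3 log2 units in WT, with 13 false calls among 19068 unchanged genes. The simulation changed only 200 genes, in equal falls and rises, while 63.2% of genes were called in the WT data. It therefore checks the fit and does not show the error rate or the scaling in these data. Alternatives were other scalings and filters, DESeq2 1.42.0, limma 3.58.1, fits without single or several libraries and the animal number range. Limma was run as voom with quality weights, called limma voom here, and on log2(TPM + 1). Relations with Lrp2 used permutation tests over libraries.

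Coordinates and coding sequences are from GENCODE M21 (GRCm38), promoters from RefSeq. Members, gene lists and alternatives were chosen with earlier results of these data known. Members named by rule were the 10 highest by TPM, the 12 largest falls and rises, the adrenal P450s, up to 3 per role and the steadiest. Not every value of these members is given for every group. The other members named were chosen after their values were seen. Some results on regulators, motifs and marker genes are not reported here.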

Additional observations from a re-analysis of the deposited data

Results flagged for a closer look

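For 35 members, the highest and lowest library of each group were compared with the rest of that group (Dixon's gap over range at the 95% critical value). This gave 30 flags in 140 combinations of member and group. The rate of 1 in 20 by chance holds for independent, normally distributed values. Members that vary together in the same animals do not meet it, so the number of flags was not tested. HET cisplatin 6 accounted for 9 of them, WT cisplatin 3 for 5 and WT cisplatin 6 for 4. All values are CPM, and each stood above all other libraries of its group.

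HET cisplatin 6 held Cyp4b1 at 446 (others 106 to 252), Cyp4a10 at 950 (104 to 336), Cyp4a14 at 1790 (153 to 700), Cyp4a12a at 14.1 (1.09 to 5.70), Cyp2d9 at 117 (13 to 48.2) and Cyp2d12 at 7.24 (0 to 0.840). The same library held Cyp2a5 at 123 (6.68 to 41.8), Cyp2d22 at 81.0 (32.3 to 46.6) and Cyp2u1 at 24.8 (14.4 to 18.3). WT cisplatin 3 held Cyp4b1 at 425 (175 to 246), Cyp4a31 at 438 (84.9 to 209), Cyp4a10 at 861 (91.1 to 358), Cyp4a14 at 1490 (65.2 to 642) and Cyp2d22 at 67.7 (35.6 to 50.3). WT cisplatin 6 held Cyp2a4 at 55.1 (2.74 to 27), Cyp2j13 at 69.1 (14.7 to 34.3), Cyp2j11 at 87.3 (6.10 to 42.7) and Cyp2a5 at 83.2 (3.24 to 30.9).

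HET PBS 6 held Cyp4a10 at 519 (246 to 344) and Cyp4a14 at 204 (15.5 to 50.8). HET cisplatin 8 held Cyp3a13 at 6.0 (0.929 to 2.34) and Cyp4f17 at 34 (19.5 to 25). Single values were Cyp7b1 at 278 in HET PBS 3, Cyp2d12 at 70.6 in WT PBS 6, Cyp2s1 at 16.3 in HET PBS 4, Cyp3a13 at 3.08 in WT cisplatin 4, Cyp2b10 at 8.50 in HET PBS 7, Cyp4v3 at 13.5 in HET cisplatin 3, Cyp46a1 at 1.28 in WT PBS 7 and Cyp26b1 at 28.8 in WT PBS 1.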

How the results depend on the processing

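Over all alternatives that were run, the number of P450 genes higher under cisplatin was 12 to 19 in WT and 11 to 18 in HET, and the number lower was 16 to 25 in each genotype. Over all genes, single-library omissions aside, these alternatives called 5172 to 12055 higher and 2439 to 6132 lower in WT, and 5118 to 12321 higher and 1983 to 5674 lower in HET. The number of genes tested ran from 16397 to 34823 with the filter used. Leaving out single libraries gave 13 to 14 higher and 19 to 23 lower in WT and 13 to 14 higher and 21 to 24 lower in HET. No share of all genes was taken for these single-library fits, so their counts show only how far the member calls moved. Genotype and interaction gave 0 calls under each alternative. Within animals of the 600s alone, 12 were higher and 20 lower in WT, against 13 and 19 in HET, beside 5172 higher and 4771 lower of all 19491 genes in WT and 5118 and 4740 in HET. The ratio of summed levels, cisplatin over PBS in WT, was 0.285 in TPM and 0.234 in CPM.

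With library totals the sign turned for Cyp4f13, Cyp2u1, Cyp2r1, Cyp26b1 and Cyp2j8 in WT and for Cyp39a1, Cyp4f13, Cyp2c23, Cyp2b10, Cyp2r1, Cyp2f2, Cyp4a10 and Cyp2j8 in HET. Calls of a fall were lost for Cyp2j9 and Cyp4a31 in both genotypes, Cyp4f13, Cyp2c23 and Cyp2c68 in WT and Cyp2d26, Cyp39a1 and Cyp4f13 in HET. Calls of a rise were gained for Cyp46a1, Cyp2u1 and Cyp4x1 in both, Cyp39a1 in WT and Cyp4f13 in HET. Cyp2u1 in WT went from -0.04 to 0.353 with library totals (edgeR, adjusted p = 0.00563) and to 0.312 on log2(TPM + 1) with limma. Cyp39a1 in HET went from -0.23 to 0.178 and 0.158 (adjusted p = 0.0651 and 0.061). On log2(TPM + 1), which understates changes of low genes, Cyp4f14 was -0.44 in WT and -0.34 in HET, Cyp3a13 0.43 and 0.585, Cyp17a1 0.22 and 0.19, Cyp2d12 -3.89 and -3.68, Cyp4a12a -4.10 and -4.10, Cyp7b1 -3.61 and -3.50, and in WT Cyp4f18 0.80 and Cyp2b10 0.63 (limma). The cause was not tested. No paired analysis was possible because each library is its own animal and the labels give no replicate numbers shared between groups. Genes near the count filter are limited by depth: 3 counts in the shallowest library are 0.122 CPM.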

Other observations

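Outside the symbol rule, Cyp2ab1 had 44 counts over 20 libraries and the antisense gene Cyp4x1os had 22 counts over 13, and neither was tested. Besides Cyp3a11 and Cyp3a25, liver-type members with their most counts in HET cisplatin 1 or WT PBS 2 were Cyp2c29 (12 and 10 counts, at most 3 elsewhere), Cyp2c50 (2 and 10, at most 2), Cyp1a2 (3 and 5, at most 1), Cyp2a12 (2 and 7, at most 3), Cyp2c54 (6 and 1, at most 2) and Cyp2c70 (4 and 2, at most 3). Cyp7a1 (2 and 3, up to 4 elsewhere), Cyp8b1 (0 and 3, up to 5) and Cyp2c37 (2 and 0, up to 2) were not higher there. Several of these highest counts elsewhere came from WT cisplatin 2: Cyp7a1 with 4, Cyp2a12 with 3, and Cyp2c50 and Cyp2c54 with 2 each. That library also held the only counts of Cyp2a22, 3 in number.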
